A study of Mus musculus with 39 samples.

Results

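The mitochondrial genome transcripts were followed in C2C12 mouse myoblasts with and without filamin C during muscle differentiation. Members were all genes whose symbol begins with mt- (chromosome M) in the count table, and 13 of its 29980 genes met this rule. All 13 encode proteins: mt-Nd1, mt-Nd2, mt-Nd3, mt-Nd4, mt-Nd4l, mt-Nd5 and mt-Nd6 of respiratory complex I, mt-Cytb of complex III, mt-Co1, mt-Co2 and mt-Co3 of complex IV, and mt-Atp6 and mt-Atp8 of complex V. The 2 rRNA and 22 tRNA genes that the GENCODE M21 annotation places on chromosome M were not analysed here. Of the 13 members, 7 had counts in each of the 39 libraries, and the other 6 were near 0, with 0 to 99 counts in a library.

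FlncKO-C2C12 cells (KO) carried a CRISPR/Cas9 change guided to the first exon of Flnc, which encodes filamin C, a muscle protein that crosslinks actin. WT-C2C12 cells (WT) were the unmodified line. Both lines were harvested as growing myoblasts (day 0) and after 1, 2, 4 and 6 days in 2% horse serum, a low-serum medium in which myoblasts leave the cycle and fuse. There were 4 libraries for every line and day, and 3 for KO day 2. The labels do not say whether replicates were separate cultures, so p-values measure the spread between these samples, and any difference between the lines that arose outside Flnc is part of each KO against WT comparison.

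Mitochondrial DNA is a compact circle from which both strands are read as long precursors by the phage-type polymerase Polrmt with the factors Tfam and Tfb2m. The precursors are cut, mostly at the tRNAs that lie between the genes, and most of the freed mRNAs receive short poly(A) tails that let them be captured in a poly(A) library. In human cells the mt-Nd6 mRNA is known to lack such a tail. The level of each mRNA therefore also depends on its own turnover, in which Lrpprc and Slirp protect most mRNAs. Nearly all mRNAs come from the heavy-strand precursor, and mt-Nd6 alone comes from the light-strand precursor. The nuclear genome holds copies of stretches of mitochondrial DNA, and short reads from a copied stretch can match both.

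The 6 members near 0 lie side by side, from mt-Co2 to mt-Nd4l, and sequence comparison showed that this stretch has a copy on chromosome 1. Annotated pseudogenes (GENCODE M21, GRCm38) matched it from chrM:6390-11042 (4653 bases) to chr1:24611535-24616188 on the minus strand. The 7 pseudogenes of chromosome 1 followed the order of the mitochondrial genes, with 5 at exactly the same spacing and the other 2 shifted by 1 base. All 6 members near 0 lie wholly inside it, while mt-Co1 and mt-Nd4 straddle its ends. The first 60 bases of the complex IV gene mt-Co2 (chrM:7013-7072, plus strand) are shown with those of the chromosome 1 copy Gm28661 (chr1:24615506-24615565, minus strand) and of a chromosome 2 copy, Gm13341 (chr2:22587903-22587962, minus strand), because the first is identical. Capitals mark the bases of Gm13341 that differ, C25T and G57A, counted from 1 at the first base of the gene.
mt-Co2: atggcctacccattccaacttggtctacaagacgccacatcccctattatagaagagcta
Gm28661: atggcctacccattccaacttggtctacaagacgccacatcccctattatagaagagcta
Gm13341: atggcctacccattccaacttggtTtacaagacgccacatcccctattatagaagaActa
The start of the complex I gene mt-Nd3 (chrM:9459-9509, plus strand) and of its copy Gm28438 (chr1:24613069-24613119, minus strand) are shown because they hold the single difference found between them, T3C, in capitals.
mt-Nd3: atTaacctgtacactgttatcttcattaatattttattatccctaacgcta
Gm28438: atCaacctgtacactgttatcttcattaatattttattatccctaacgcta
The end of the copied stretch inside mt-Nd4 (chrM:11013-11072, plus strand) is shown with the end of its copy Gm28439 (chr1:24611535-24611564, minus strand), and capitals mark the mitochondrial bases beyond the annotated copy.
mt-Nd4: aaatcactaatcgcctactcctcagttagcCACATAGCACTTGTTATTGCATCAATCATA
Gm28439: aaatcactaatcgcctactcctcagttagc

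Read-length windows gave a like division, apart from mt-Atp8. Of all 51-base windows in a member, the read length of these libraries, an exact copy in an annotated nuclear transcript was found for 100% in mt-Co2, 99.9% in mt-Co3, 99.5% in mt-Atp6, 98.8% in mt-Nd4l and 98.0% in mt-Nd3. The share was 62.2% in mt-Nd4 and 50.6% in mt-Co1, 8.00% in mt-Nd2 and 7.22% in mt-Nd5, and 0% in mt-Nd1, mt-Nd6 and mt-Cytb. For mt-Atp8 it was also 0%, but its copy would lie at chr1:24614609-24614812, which the annotated copies cover only in part. Gm10925, the copy of mt-Atp6, reaches to chr1:24614651. It thus holds only the 43 bases that mt-Atp8 shares with mt-Atp6, fewer than a 51-base window. For the rest no annotated copy was found, and the sequence there was not read here. Summed over all libraries, the mRNA of mt-Co1 had 6437563 counts per kb, and mt-Co2, the next gene along, had 667. Among the 6 members near 0 the sums ran from 141 counts per kb for mt-Nd4l to 811 for mt-Co3. How the authors' counting treated reads that align to several places is not given in the sources used here, and its part in these low counts was not tested. Of the copies, Gm10925 (copy of mt-Atp6) had 358 counts in all libraries together, Gm10222 (copy of mt-Nd4l) 70 and Gm4076 (copy of part of mt-Nd5 on chromosome 13) 34. The other copies, among them those of mt-Co2, mt-Co3 and mt-Nd3, were not analysed here.

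**Figure D1:**
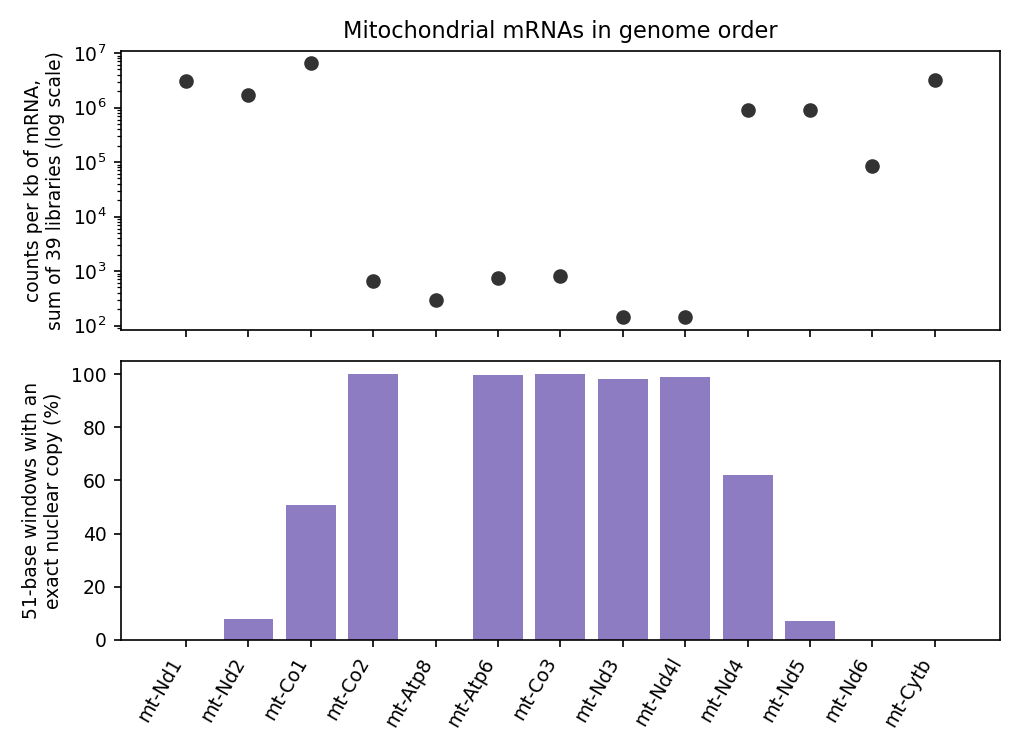
Mitochondrial mRNAs in genome order along the horizontal axis. Upper points give counts per kb of mRNA summed over 39 libraries (log scale), and lower bars the percentage of 51-base windows with an exact nuclear copy: the members from mt-Co2 to mt-Nd4l lie between 141 and 811 counts per kb, and apart from mt-Atp8 at 0% they have 98.0% to 100% of windows copied.

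Neighbouring mitochondrial genes also share bases with each other. The ends of mt-Nd5 (chrM:13526-13565, plus strand) and mt-Nd6 (chrM:13552-13591, minus strand) are shown because their 14 shared bases, in capitals, are read from opposite strands. The library kit marks strand, but the strand setting of the counting is not given in the sources used here, so reads of the light-strand mRNA mt-Nd6 and heavy-strand reads across it cannot be told apart.
mt-Nd5: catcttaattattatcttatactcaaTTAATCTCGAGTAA
mt-Nd6: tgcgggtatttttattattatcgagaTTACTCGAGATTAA
The last 60 bases of mt-Atp8 (chrM:7910-7969, plus strand) are shown because 43 of them, in capitals, are also the start of mt-Atp6, another subunit of the ATP synthase.
mt-Atp8: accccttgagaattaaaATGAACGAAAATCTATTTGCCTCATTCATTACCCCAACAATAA
The overlap was 7 bases between mt-Nd4l and mt-Nd4 and 1 base between mt-Atp6 and mt-Co3.

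Total counts per library ran from 6838281 to 28902526 and were smaller late in the KO and WT time courses, at 6838281 to 14511491 at KO day 6 and 19977809 to 28234783 at KO day 0, and 8045843 to 15779125 at WT day 6 and 22810254 to 28902526 at WT day 0. Flnc itself averaged 29.4 to 131 CPM (counts scaled by the library total to a fixed sum) in the KO groups and 648 to 1615 CPM in the WT groups, and on each day all KO libraries lay below all WT libraries. The myoblast markers Myod1, Myf5, Pax7, Des and Cdh15 were all present, with summed levels of 2884 to 3493 CPM at KO day 6 and 3256 to 4770 CPM at WT day 6. Replicate 3 of KO day 1 and replicate 4 of WT day 0 correlated least with the other libraries of their groups, at means of 0.929 and 0.955 on log2 CPM, and both are named where they matter.

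Per length, the abundance of the counted mRNAs spanned a wide range. In TPM (counts divided by mRNA length and then scaled to a fixed sum), the mean over the 39 libraries was 31803 for mt-Co1, the catalytic core of cytochrome c oxidase, 15680 for mt-Cytb, the cytochrome b of complex III, and 14832 for mt-Nd1, a membrane subunit of complex I. The complex I subunits mt-Nd2, mt-Nd5 and mt-Nd4 followed at 8430, 4684 and 4451 TPM, and mt-Nd6, also of complex I, was lowest at 381 TPM. The order held in 39 of 39 libraries at 4 of its 6 steps. The exceptions were mt-Cytb above mt-Nd1, in 20 of 39 libraries, and mt-Nd5 above mt-Nd4, in 23 of 39. By group means these orders differed between the lines. The mean of mt-Cytb was above mt-Nd1 in KO cells except at day 0 (day 6: 26272 and 21603 TPM). In WT cells it was below except at day 6 (day 0: 9628 and 12686 TPM). The mean of mt-Nd5 was above mt-Nd4 on each day in WT cells (day 6: 5868 and 4233 TPM). In KO cells it was below except at day 6 (day 0: 1783 and 2180 TPM). No test was made of these orders. The levels of mt-Co1 and mt-Nd4 are lower limits if reads from their copied parts were dropped, which was not tested. Divided by the windows without a nuclear copy, mt-Nd4 (2433458 counts per 1000 windows) came above mt-Nd2 (1897981), and mt-Co1 stayed first at 13477012.

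The mitochondrial mRNAs took 1.17% to 6.21% of all counts of a library. In KO cells the share averaged 2.07% ± 0.377 at day 0, 2.80% ± 0.753 at day 1, 3.39% ± 0.538 at day 2 (n = 3), 4.58% ± 1.16 at day 4 and 5.24% ± 0.884 at day 6 (SD, n = 4 elsewhere). In WT cells it averaged 1.96% ± 0.579, 2.41% ± 0.429, 2.69% ± 0.440, 3.01% ± 0.929 and 3.17% ± 0.298 on the same days (SD, n = 4). The lines overlapped at days 0, 1, 2 and 4. At day 6 the KO libraries had 4.06%, 5.85%, 5.06% and 5.97%, against 2.89%, 3.39%, 2.95% and 3.47% in WT libraries, so the groups did not overlap. Replicate 3 of KO day 1, at 1.73%, and replicate 4 of WT day 0, at 1.17%, were the lowest of their groups, and without them the means were 3.16% at KO day 1 and 2.22% at WT day 0. In RNA from whole cultures, fewer cells of a kind and less RNA per cell cannot be told apart, and a share also depends on how much nuclear mRNA the cells hold.

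**Figure D2:**
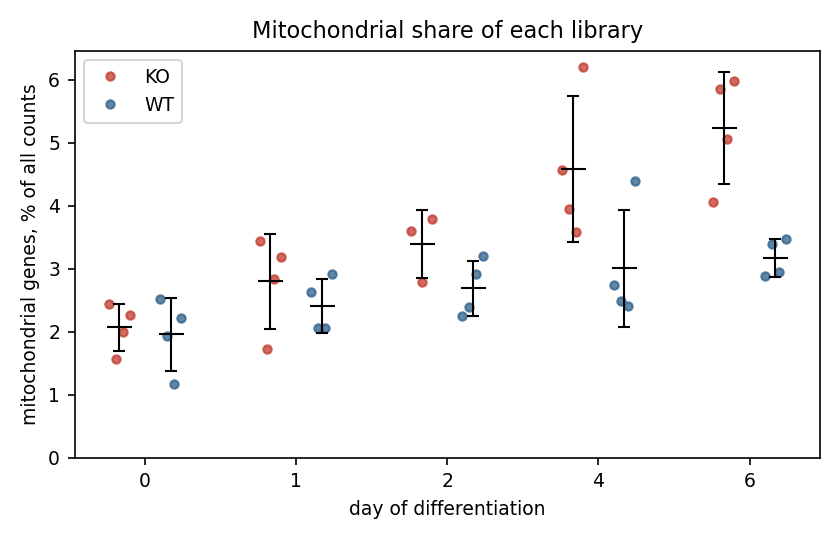
Share of all counts assigned to mitochondrial genes (vertical axis, percent) by day of differentiation (horizontal axis), KO in red and WT in blue. Nearly all of these counts belong to the 7 counted members. Points are libraries, and black bars give the mean and SD: at day 6 the KO libraries lie at 4.06% to 5.97%, above all WT libraries at 2.89% to 3.47%.

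At day 6, 3 of the 7 counted mRNAs were higher in KO than in WT cells: mt-Nd2 of complex I, mt-Cytb of complex III and mt-Co1 of complex IV. Over all 13780 genes tested, 28.9% were called in this comparison in either direction and 14.5% were called higher (edgeR, Benjamini-Hochberg adjusted p under 0.05). The mRNA of mt-Nd2 had 3681, 6198, 4369 and 5257 CPM in KO libraries, against 2749, 2962, 1898 and 2465 CPM in WT libraries. All KO libraries were above all WT libraries, and the log2 difference was 0.88 ± 0.22 (SE; adjusted p = 0.0165). For mt-Cytb the values were 5619.8, 10933, 9580.0 and 10900.2 CPM in KO libraries and 4096, 4844, 4864 and 5578 CPM in WT libraries. These groups also did not overlap, although KO replicate 1 was close to the highest WT library, and the log2 difference was 0.86 ± 0.25 (adjusted p = 0.0328). The most abundant member, mt-Co1, had 19627, 24492, 23922 and 28622 CPM in KO libraries and 13094, 15901, 14967 and 17246 CPM in WT libraries, a log2 difference of 0.59 ± 0.14 (adjusted p = 0.0393).

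The other 4 counted mRNAs, all of complex I, did not pass the test at day 6. KO libraries had 2647, 3596, 3206 and 3629 CPM of mt-Nd4, against 1787, 2120.0, 1510.3 and 1696 CPM in WT libraries. These groups did not overlap either, and the log2 difference was 0.81 ± 0.15 (adjusted p = 0.0608). The SE covers only these groups, whereas the test uses the spread of each gene over all 10 groups. Groups with every KO library above every WT library were seen for 4 of the 7 members, mt-Co1, mt-Cytb, mt-Nd2 and mt-Nd4, and for 19.2% of all genes tested. The log2 difference was 0.60 ± 0.21 for mt-Nd1 (adjusted p = 0.0667), 0.36 ± 0.15 for mt-Nd5 (adjusted p = 0.536) and 0.58 ± 0.45 for mt-Nd6 (adjusted p = 0.303). The median of the 7 was 0.60, against 0.02 for all genes tested. The calls were sensitive to single libraries: 0 were called without KO day 6 replicate 3 or without WT day 6 replicate 4, and mt-Nd2 alone was called without KO replicate 4 or 5 or WT replicate 1 or 3. With no filter on low counts mt-Nd2 alone was called.

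The extent of differentiation differed between the same libraries. The summed level of the myotube markers Myog, Myh3, Mymk, Ckm and Acta1 was 2735 to 5565 CPM at KO day 6 and 13216 to 15831 CPM at WT day 6, with 0 of the 5 genes at 0 in either group. Fibroblast markers summed to 21.3 to 73.3 CPM at KO day 6, with Thy1 and Dpp4 at 0, and to 118 to 544 CPM at WT day 6, with Thy1 at 0. The part of these differences in the mitochondrial values was not tested. Adipocyte, osteoblast, blood and endothelial markers summed to at most 4.31 CPM in any day 6 library.

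**Figure D3:**
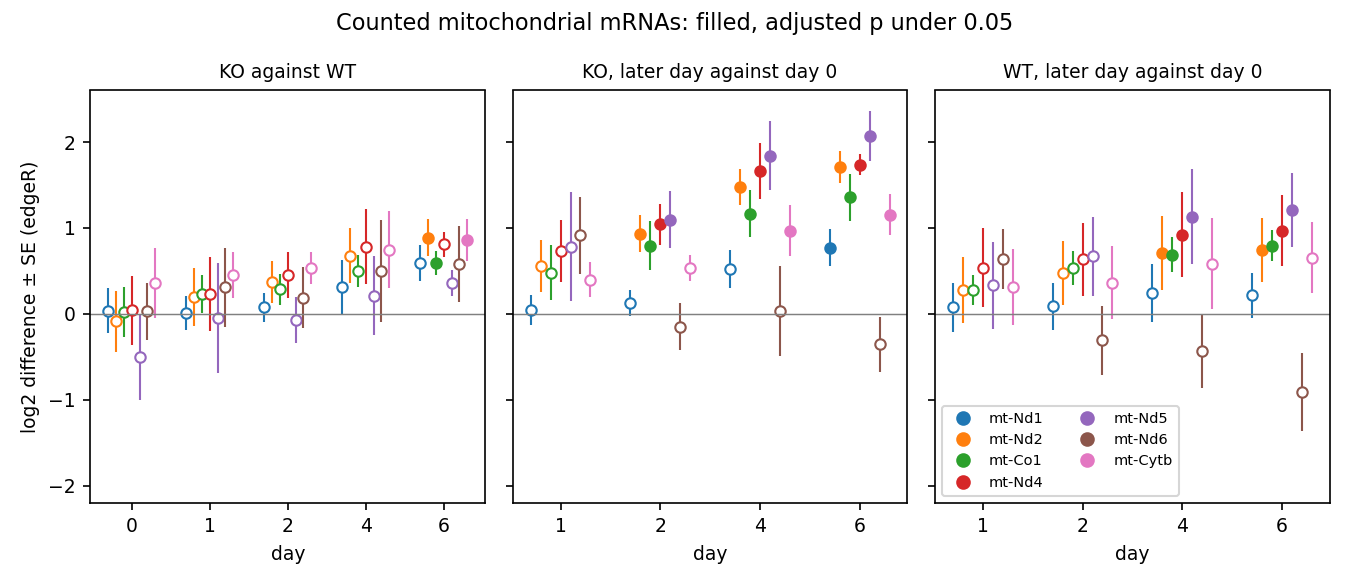
Log2 differences (vertical axis, ± SE) of the 7 counted mitochondrial mRNAs for KO against WT on each day, and for each later day against day 0 in KO and in WT cells, by day (horizontal axis). Filled points passed the edgeR test: 3 members at day 6 in the left panel, and 6 in KO and 4 in WT cells at day 6 against day 0.

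Before day 6 no counted member was called between the lines in the model without a replicate block. At day 0, 0 of 7 were called, against 15.5% of all genes tested, at day 1 0 of 7 against 18.0%, at day 2 0 of 7 against 17.9%, and at day 4 0 of 7 against 27.5% (edgeR). DESeq2 also called 0 on each of these days. At an unadjusted p under 0.05 there were 0 at days 0, 1 and 2, and 4 at day 4. The median log2 difference of the 7 members was 0.03 at day 0, 0.23 at day 1, 0.28 at day 2 and 0.50 at day 4. The largest estimate of day 0 was -0.50 ± 0.50 for mt-Nd5 (adjusted p = 0.405), and that of day 2 was 0.53 ± 0.18 for mt-Cytb (adjusted p = 0.295). The KO day 2 libraries had 6006, 5144 and 7113 CPM of mt-Cytb, against 3609.5, 3462, 4175 and 5048 CPM in WT libraries. It was the 1 member whose groups did not overlap at that day, where 14.8% of all genes tested had every KO library above every WT library.

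At day 4 the values of 4 members stood near the threshold. The log2 difference was 0.50 ± 0.18 for mt-Co1 (adjusted p = 0.0827), 0.75 ± 0.45 for mt-Cytb (adjusted p = 0.0682), 0.68 ± 0.32 for mt-Nd2 (adjusted p = 0.0698) and 0.78 ± 0.44 for mt-Nd4 (adjusted p = 0.0727). WT day 4 replicate 5 held 4.39% mitochondrial counts, above the 2.41% to 2.75% of the other WT libraries of that day, and KO replicate 5, at 6.21%, was the highest KO library. Between KO and WT libraries of the same replicate number, deviations from the group means correlated at 0.126 to 0.506 at this day. For replicate 5 the correlation was 0.142. With replicate number as a block, mt-Co1, mt-Cytb, mt-Nd2 and mt-Nd4 were called. Their differences were 0.50, 0.75, 0.70 and 0.78 in that order, with adjusted p of 0.0396, 0.0246, 0.0247 and 0.0260 (edgeR). Without WT day 4 replicate 5 the same 4 were called, without KO replicate 3 mt-Cytb and mt-Nd4, and without KO replicate 4 mt-Nd2 and mt-Nd4.

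Within KO cells the mitochondrial mRNAs rose with differentiation, and the number called grew by day. Against day 0, 0 of 7 were called at day 1 (7.99% of all genes tested; 3 at an unadjusted p under 0.05, and 0 by DESeq2), 4 at day 2 (26.6%), 5 at day 4 (37.5%) and 6 at day 6 (43.6%). All calls were upward, where 20.5% of all genes tested were called higher at day 6. The complex I mRNA mt-Nd5 had 4316, 5116, 3959.8 and 4140.2 CPM at KO day 6, against 1283, 568, 1297 and 986 CPM at KO day 0. Its log2 difference of 2.07 ± 0.29 was the highest of the 7 (adjusted p = 9.86e-05). Every KO day 6 library was above every KO day 0 library for mt-Nd5, and this held for the 6 members called, against 20.2% of all genes tested. The difference at day 6 was 1.74 ± 0.12 for mt-Nd4 (adjusted p = 8.18e-05), 1.71 ± 0.19 for mt-Nd2 (adjusted p = 1.17e-05), 1.36 ± 0.27 for mt-Co1 (adjusted p = 6.95e-06), 1.15 ± 0.24 for mt-Cytb (adjusted p = 0.00302) and 0.77 ± 0.21 for mt-Nd1 (adjusted p = 0.0115). The light-strand mRNA mt-Nd6 was the exception, with 23.7, 50.4, 52.2 and 54.9 CPM at KO day 6, against 43.1, 63.4, 68.6 and 53.2 CPM at KO day 0 (log2 difference -0.36 ± 0.32, adjusted p = 0.490). The median of the 7 members was 1.36, against -0.05 for all genes tested. Total counts were also smaller at day 6, and their part was not tested. The early calls rested on few libraries. At day 1, 4 members were called without KO day 1 replicate 3, and at day 2 the count was 0 without KO day 0 replicate 3 or KO day 2 replicate 5, 2 without KO day 0 replicate 5 and 1 without KO day 2 replicate 1.

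In WT cells 4 members rose, all of them also called in KO cells. Against day 0, 0 of 7 were called at day 1 (4.19% of all genes tested; 0 at an unadjusted p under 0.05 and 0 by DESeq2) and 0 at day 2 (25.6%; 1 at an unadjusted p under 0.05, and mt-Co1 by DESeq2). At day 4 there were 4 (43.7%) and at day 6 there were 4 (49.4%), mt-Co1, mt-Nd2, mt-Nd4 and mt-Nd5 on both days. All were upward, and 21.7% of all genes tested were called higher at WT day 6. The mRNA of mt-Nd5 had 3359, 4026, 2833 and 2795 CPM at WT day 6, against 2274, 1548, 580 and 1381 CPM at WT day 0. All day 6 libraries were above all day 0 libraries, as for mt-Co1 and mt-Nd4 and for 19.9% of all genes tested, and the log2 difference was 1.21 ± 0.43 (adjusted p = 0.0110). It was 0.97 ± 0.41 for mt-Nd4 (adjusted p = 0.0141), 0.79 ± 0.18 for mt-Co1 (adjusted p = 0.00276) and 0.74 ± 0.37 for mt-Nd2 (adjusted p = 0.0278).

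The median of the 7 was 0.74 at WT day 6, against -0.08 for all genes tested, and the remaining WT members missed the threshold. The log2 difference was 0.65 ± 0.41 for mt-Cytb (adjusted p = 0.0769) and 0.21 ± 0.26 for mt-Nd1 (adjusted p = 0.490). For mt-Nd6 it was -0.91 ± 0.45 (adjusted p = 0.0599), with 28.0, 27.8, 14.3 and 45.2 CPM at WT day 6 and 65.4, 61.6, 28.2 and 66.0 CPM at WT day 0. These groups overlapped, since WT day 6 replicate 5, at 45.2 CPM, lay above WT day 0 replicate 4, at 28.2 CPM. The day 4 count was 0 without WT day 4 replicate 5 and 1 without WT day 0 replicate 4, and at day 2 mt-Co1 was called without WT day 2 replicate 1.

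Whether the change over days differed between the lines was tested directly, as KO minus WT at a later day less KO minus WT at day 0. None of the 7 counted members passed at day 1 (0% of all genes tested), day 2 (0.544%), day 4 (7.66%) or day 6 (9.95%), or over all days together (7.74%; edgeR). DESeq2 called 0 at each of these days. At an unadjusted p under 0.05 there were 0 at days 1, 2 and 4 and over all days, and at day 6 there was 1, mt-Nd2. Its log2 estimate was 0.97 ± 0.42 (edgeR, adjusted p = 0.115). Without WT day 0 replicate 4, mt-Nd2 was called. The estimates of all 7 members were above 0 at days 4 and 6 (except mt-Cytb at day 4 without KO day 4 replicate 5), with medians of 0.48 and 0.56, against medians of 0.02 and 0.03 over all genes tested. The calls at KO day 6 and not at WT day 6 for mt-Nd1 and mt-Cytb are therefore not shown to be a difference between the lines.

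The make-up of the mitochondrial counts is given as shares, which in effect cover only the 7 counted members. Among the mitochondrial counts, mt-Co1 held 37.0% to 56.7% in every library, with group means from 44.4% to 48.9%. The share of mt-Nd5 averaged 4.93% ± 1.24 at day 0, 5.95% ± 2.50 at day 1, 6.61% ± 0.346 at day 2, 8.18% ± 2.32 at day 4 and 8.53% ± 1.59 at day 6 in KO cells (SD, n = 4 and n = 3 at day 2). In WT cells it averaged 7.05% ± 1.80, 7.44% ± 1.75, 8.45% ± 1.38, 9.78% ± 2.59 and 10.3% ± 1.81 on the same days (SD, n = 4). The share of mt-Nd1, the first mRNA after the rRNA genes, was lower at later days in both lines. It averaged 18.2% ± 3.85 at day 0, 13.9% ± 1.91 at day 1, 12.2% ± 1.04 at day 2, 11.8% ± 2.65 at day 4 and 12.1% ± 1.29 at day 6 in KO cells. WT cells had 18.0% ± 1.70, 15.7% ± 0.591, 14.0% ± 1.42, 13.4% ± 2.08 and 12.6% ± 1.18 on those days. The mt-Cytb share in KO cells averaged 20.2% ± 2.81, 19.6% ± 1.70, 18.0% ± 1.13, 17.4% ± 4.06 and 17.4% ± 2.40 on those days. WT cells had lower means of 15.5% ± 3.26, 16.4% ± 1.74, 15.1% ± 0.875, 15.0% ± 3.68 and 15.3% ± 1.19. For mt-Cytb the lines overlapped at days 0, 4 and 6, and not at days 1 and 2. A share is relative to the other members, and no test was made of it.

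The single light-strand mRNA, mt-Nd6, was set against the heavy-strand mRNAs. Its counts may include heavy-strand reads across the gene, since the strand setting of the counting is not given. Its counts, as a percentage of those of all heavy-strand members, averaged 0.291% ± 0.103 at day 0, 0.385% ± 0.154 at day 1, 0.154% ± 0.0163 at day 2, 0.129% ± 0.0723 at day 4 and 0.0850% ± 0.0190 at day 6 in KO cells. In WT cells the values were 0.280% ± 0.0352, 0.362% ± 0.0376, 0.166% ± 0.0467, 0.136% ± 0.0535 and 0.0895% ± 0.0340. On each day the ranges of KO and WT libraries overlapped, and in both lines all day 6 libraries lay below all day 0 libraries. How far mt-Nd6 RNA was captured through a tail was not tested. KO day 6 libraries had 0.0584% to 0.103%, against 0.177% to 0.405% at KO day 0, and WT day 6 libraries had 0.0484% to 0.130%, against 0.242% to 0.319% at WT day 0. In CPM, mt-Nd6 was highest at day 1 in both lines, at 110 ± 53.8 in KO cells and 87.9 ± 22.8 in WT cells (SD, n = 4). The log2 difference from day 0 was 0.91 ± 0.45 in KO cells (adjusted p = 0.153) and 0.64 ± 0.35 in WT cells (adjusted p = 0.422).

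**Figure D4:**
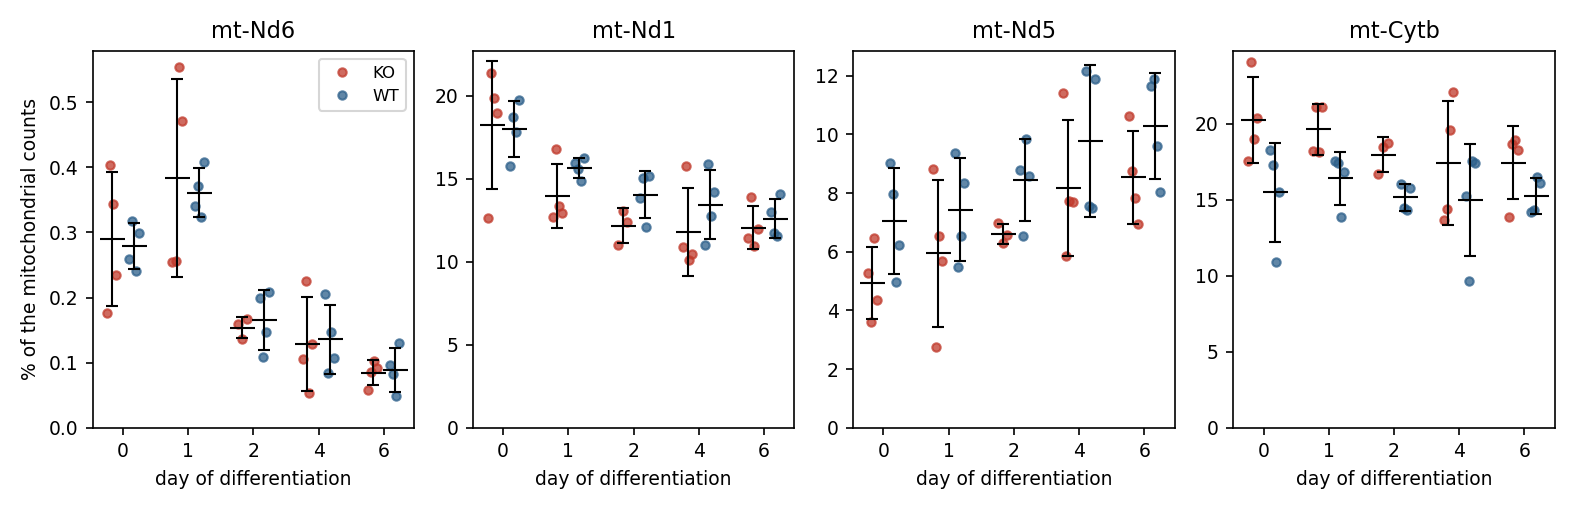
Percentage of the mitochondrial counts (vertical axes) held by mt-Nd6, mt-Nd1, mt-Nd5 and mt-Cytb by day of differentiation (horizontal axes), KO in red and WT in blue. Points are libraries, and black bars give the mean and SD: mt-Nd6 lies at 0.0584% to 0.103% at KO day 6 and 0.177% to 0.404% at KO day 0, and mt-Nd5 averages 8.53% in KO and 10.3% in WT cells at day 6.

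Of the 6 members near 0, mt-Co2, mt-Co3 and mt-Atp6 passed the filter on low counts and mt-Atp8, mt-Nd3 and mt-Nd4l did not. Together the 6 had 1 to 246 counts in a library, with the highest sums, 246 and 238, in KO day 4 replicates 5 and 4. Calls among the 3 tested therefore rest on very few reads. KO against WT gave a call for mt-Co3 at day 0 (25 counts over the KO libraries and 2 over the WT libraries) and for mt-Atp6 at day 4 (155 counts in KO and 22 in WT libraries). Over all genes tested 15.5% were called at day 0 and 27.5% at day 4. Against day 0, mt-Co3 was called on every later day in WT cells, and mt-Atp6 on every later day in KO cells, where mt-Co2 was also called at day 4 and mt-Co3 at days 4 and 6. The shares of all genes tested ran from 4.19% at day 1 to 49.4% at day 6 in WT cells. In KO cells they ran from 7.99% to 43.6%. No fold change is given for them at counts this low.

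The nuclear genes that serve mitochondrial RNA were taken from lists of known function. Among 12 genes of mitochondrial transcription, 0 were called at day 6 in KO against WT cells by edgeR (14.5% of all genes tested were called higher and 14.4% lower), with 1 (Polrmt) at an unadjusted p under 0.05 and 0 by DESeq2, and the median log2 difference was 0.17. Tfam, which packages and starts transcription of mitochondrial DNA, averaged 85.1 ± 5.63 CPM in KO cells and 68.4 ± 14.0 CPM in WT cells (SD, n = 4), a log2 difference of 0.24 ± 0.15 (adjusted p = 0.554). The polymerase Polrmt averaged 62.2 ± 7.74 CPM in KO cells and 43.5 ± 6.10 CPM in WT cells. Its log2 difference was 0.44 ± 0.13 at day 6 (adjusted p = 0.106) and 0.65 ± 0.19 at day 4, where it was called (adjusted p = 0.0149). It was the 1 gene of the 12 called higher at day 4, and 1 other was called lower. Over all genes tested 27.5% were called at day 4 in either direction. Against day 0, 2 of the 12 rose and 1 fell at KO day 6, where 20.5% of all genes tested were called higher and 23.1% lower. At WT day 6, 6 rose and 0 fell, beside 21.7% and 27.8% of all genes tested. The difference between these changes passed the test for 0 of the 12, beside 9.95% of all genes tested (edgeR). At an unadjusted p under 0.05 there was 1. Tfb2m, the factor that opens the promoter, rose in both lines, by 1.31 ± 0.23 in KO cells and 1.31 ± 0.36 in WT cells (log2; adjusted p = 9.93e-05 in KO and 7.16e-05 in WT cells).

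Of 39 tested genes of mitochondrial RNA processing, modification and decay, 4 were higher and 1 was lower in KO than in WT cells at day 6, with a median log2 difference of 0.03. Both counts are shares below those of all genes tested, 14.5% higher and 14.4% lower, so the genes named next are single calls. The count called was 2 without KO day 6 replicate 5 or WT day 6 replicate 1 or 5, and 3 without WT day 6 replicate 4. The helicase Supv3l1, part of the RNA-degrading complex, was higher by 0.49 ± 0.14 (log2; adjusted p = 0.00961), the tRNA-modifying GTPase Gtpbp3 by 0.55 ± 0.12 (adjusted p = 0.0157) and the RNA helicase Dhx30 by 0.45 ± 0.11 (adjusted p = 0.0394). Ptcd2, a pentatricopeptide protein linked in mice to the processing of the mt-Cytb precursor, averaged 34.8 CPM in KO cells and 52.9 CPM in WT cells, and the log2 difference was -0.67 ± 0.13 (adjusted p = 0.00859). The mRNA-stabilising pair did not pass the test, with log2 differences of 0.28 ± 0.18 for Lrpprc (adjusted p = 0.421) and 0.07 ± 0.27 for Slirp (adjusted p = 0.904).

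Of 20 tested genes that copy and maintain mitochondrial DNA, 4 were higher in KO than in WT cells at day 6 and 0 lower, beside 14.5% and 14.4% of all genes tested, so the share called higher is near the background. They were the topoisomerase Top3a (0.71 ± 0.21, adjusted p = 0.00443), the polymerase accessory subunit Polg2 (0.90 ± 0.23, adjusted p = 0.00768), the thymidine kinase Tk2 (0.73 ± 0.30, adjusted p = 0.0156) and the helicase Twnk (0.51 ± 0.085, adjusted p = 0.0195), all as log2 differences. The median over the 20 was 0.22, against 0.02 for all genes tested. Without WT day 6 replicate 1 the count was 2. Mitochondrial DNA itself was not measured.

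Among 11 tested coactivators and factors of mitochondrial biogenesis, 2 were higher and 1 was lower in KO than in WT cells at day 6 (median log2 difference 0.23), shares near the 14.5% and 14.4% of all genes tested. The count called was 1 without KO day 6 replicate 1. The coactivator Ppargc1a (PGC-1alpha) was already low at KO day 0, with 2 counts over all KO libraries, against 17 to 126 in each WT library. It had 0 counts in each KO library of days 1, 2, 4 and 6. The WT libraries of day 6 had 34 to 116 counts, with a mean of 6.49 ± 2.05 CPM (SD, n = 4). Against a floor of 3 counts per library Ppargc1a was at least about 20.0-fold lower in KO cells at day 6. Its relative Ppargc1b averaged 14.9 CPM in KO cells and 6.73 CPM in WT cells, a log2 difference of 1.05 ± 0.30 (adjusted p = 0.0171), and the nuclear receptor Esrra was higher by 0.53 ± 0.15 (adjusted p = 0.0314). For Ppargc1b the change from day 0 to day 6 also differed between the lines (1.48 ± 0.35, adjusted p = 0.0385), where 5.91% of all genes tested were called upward and 4.04% downward.

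The respiratory chain joins mitochondrial to nuclear products, and most of its subunits are nuclear-encoded. Of 78 tested, 0 were higher and 3 were lower in KO than in WT cells at day 6, with a median log2 difference of -0.10 against 0.02 for all genes tested. Over all genes 14.5% were called higher and 14.4% lower, so both shares are below the background. With only these groups in the model 11 were called, and 8 with a block within each day. Without KO day 6 replicate 1 or 4 or WT day 6 replicate 5, Ndufs4 alone was called. Complex I subunit Ndufs4 averaged 67.0 CPM in KO cells and 159 CPM in WT cells (-1.32 ± 0.22, adjusted p = 0.00341). The muscle forms of complex IV subunits, Cox8b and Cox6a2, averaged 11.2 and 10.1 CPM in KO cells and 30.8 and 30.4 CPM in WT cells (-1.53 ± 0.55, adjusted p = 0.0182, and -1.66 ± 0.29, adjusted p = 0.0220). At day 0 4 of the 78 were higher in KO cells and 0 lower, with a median of 0.46, beside 6.46% higher and 9.09% lower over all genes tested.

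Over the days more of the nuclear subunits were called in WT than in KO cells. At WT day 6 against WT day 0, 44 of the 78 nuclear subunits rose and 0 fell (median 0.78), where 21.7% of all genes tested were called higher. At KO day 6 against KO day 0, 8 of the 78 rose and 0 fell (median 0.07), where 20.5% of all genes tested were called higher and 23.1% lower, beside 6 of the 7 counted mitochondrial mRNAs. The difference between these changes was estimated below 0 for 72 of the 78, with a median of -0.59, and passed the test for 1, the complex I subunit Ndufs4 (-1.78 ± 0.39, adjusted p = 0.0134). It takes in the higher KO values at day 0. The median log2 difference of KO against WT cells was 0.46 at day 0 and -0.10 at day 6. The estimates for the 7 mitochondrial mRNAs were all above 0, as given above, and 0 passed. The myotube markers, which include none of these genes, also had lower summed levels in KO than in WT cells at day 6, as given above, and their part was not tested.

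**Figure D5:**
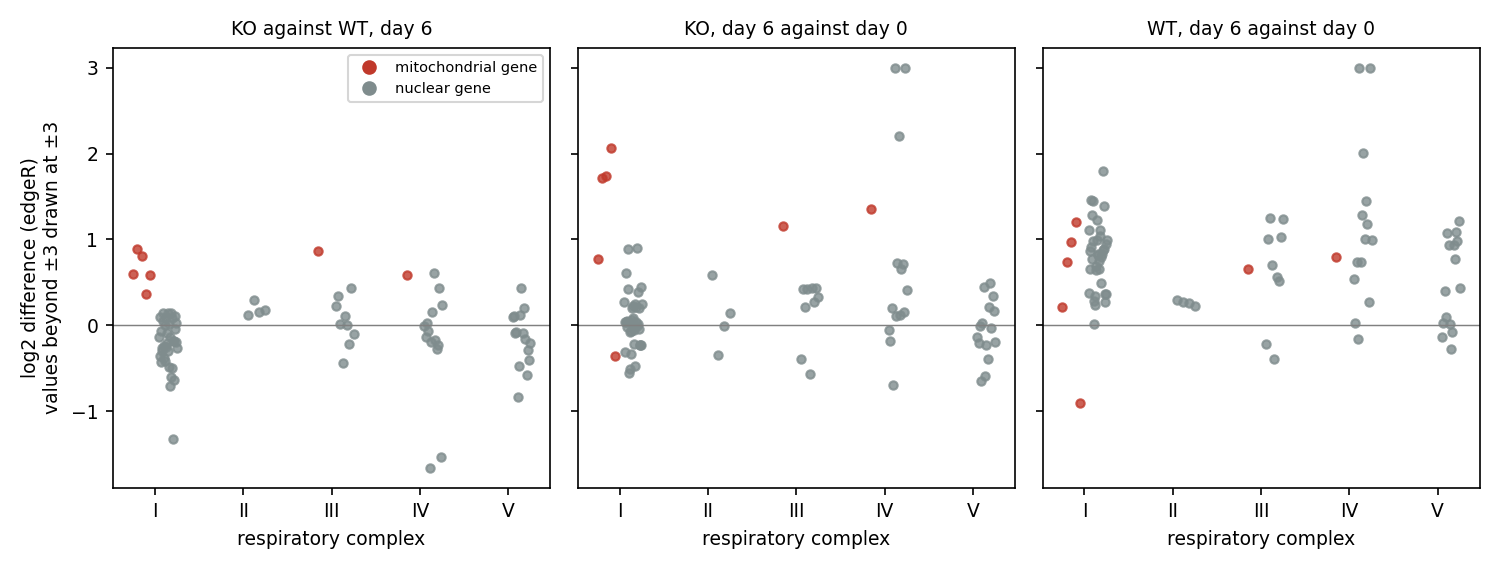
Log2 differences (vertical axis) of respiratory chain subunits by complex (horizontal axis), with the counted mitochondrial genes in red and nuclear genes in grey. Points are genes, and values beyond 3 or -3 are drawn at that limit: in KO against WT cells at day 6 the 7 mitochondrial mRNAs lie at 0.36 to 0.88, while the nuclear subunits have a median of -0.10.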

How the data were processed

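Stranded poly(A) RNA libraries (51-base reads) of KO and WT C2C12 cells were used. The deposited table holds raw counts per gene; per the submitters' processing notes the authors used FastQC 0.11.9, STAR 2.7.9 and featureCounts 2.0.3, with the builds GRCm38 and GRCh38 named without a role. Strand and multi-mapping settings are not given in the sources used here. All 29980 identifiers matched GENCODE M21, and 1 column that matched no sample was not used.

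CPM and shares were computed from these counts, and TPM with exon lengths. Members were tested in edgeR 4.0.16 (R 4.3.3, limma 3.58.1), fitted to all 39 libraries with 1 mean for each of 10 groups, TMM factors (0.904 to 1.05), filterByExpr and robust quasi-likelihood F-tests, with Benjamini-Hochberg adjustment over the 13780 genes tested (10 members) and calls at an adjusted p under 0.05. Each SE is that of the difference between group means of log2 CPM (prior count 2). The fit was tested on simulated data. Depth was 6838281 to 28902526 counts, and of values above 0 64.4% were even, so mates may have been counted separately. The fold bound from a floor of 3 counts per library has no interval and takes no account of the spread between libraries.

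Nuclear copies were found with blastn 2.17.0 (at least 95% identity over 100 bases) and exact 51-base windows in GENCODE M21 transcripts, which also gave the sequences printed. Named genes were all members, up to 4 genes with the smallest p of each related list, and Tfam, Polrmt, Lrpprc, Slirp, Ppargc1a and Ppargc1b. The members, lists and the libraries said to stand apart were chosen with earlier results of these data known. Replicate numbers recur between groups. Deviations from the group means correlated above 0.1 in every pair for KO against WT before day 6, and between day 0 and day 1 of either line and day 2 of KO, so pairing was accepted there from the data alone. Libraries of unlike replicate number were not compared in this way. Alternatives were DESeq2 1.42.0, its size factors, scaling on nuclear genes, no filter, a replicate block, only the groups compared, halved counts and leaving out libraries, and a block within each day was added after seeing the data.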

Additional observations from a re-analysis of the deposited data

Results flagged for a closer look

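In groups of 4 libraries, a library was picked out where its gap to the nearest other library filled most of the range of its group. This was checked for the 7 counted members and the mitochondrial share in 72 groups, of which chance picks out about 1 in 20, and it picked out 5. At KO day 1, replicate 3 had 1139 CPM of mt-Nd2, far below the other libraries of its group. At KO day 4, replicate 5 had 13689.8 CPM of mt-Cytb, far above the others. At KO day 6, replicate 1 had 23.7 CPM of mt-Nd6, far below the others. At WT day 0, replicate 4 had 28.2 CPM of mt-Nd6, far below the others. At WT day 4, replicate 5 had a mitochondrial share of 4.39% of all counts, far above the others. KO day 1 replicate 3 and WT day 0 replicate 4 are also the libraries named as standing apart over all genes.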

How the results depend on the processing

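Counts of the 7 members called changed as follows. For KO against WT at day 4, 0 were called in the model reported, 4 with the replicate block, 4 with a block within each day and 3 without the 2 libraries that stand apart. At day 6, 3 were called in that model, 1 with no filter, and 5 with either block (mt-Nd1 and mt-Nd4 were added), although numbers did not pair the libraries at day 6. Without the 2 libraries, 5 were called at KO day 1, 2 at WT day 4 and 1 (mt-Nd2) for genotype by day at day 6. At WT day 2, 2 were called with the replicate block and 1 with DESeq2, and at WT day 4 there were 2 with only the groups compared. The replicate block moved no other count of members called by over 1.5 times. The cause of these shifts was not tested. No called value changed sign. Uncalled estimates near 0 did, such as KO against WT with a block within each day for mt-Co1 at day 0 (-0.01, against 0.02 in the model reported) and mt-Nd5 at day 2 (0.08, against -0.07). Leaving out each library in turn gave 0 to 4 calls for KO against WT at days 4 and 6, 0 to 4 at KO days 1 and 2, 4 to 5 at KO day 4, 5 to 6 at KO day 6, 0 to 1 at WT day 2, 0 to 5 at WT day 4, 3 to 5 at WT day 6 and 0 to 1 for genotype by day at day 6. Scaling on nuclear genes, DESeq2 size factors and halved counts moved no count of members called by over 1.5 times. Of the nuclear lists for KO against WT at day 6, respiratory subunits gave 3 to 11 calls over the other alternatives (3 in the model reported), ribosomal proteins 4 to 10 (4), RNA processing 2 to 6 (5), DNA maintenance 3 to 6 (4), biogenesis 2 to 4 (3) and transcription 0 to 1 (0). With 1 library of day 6 left out, respiratory subunits gave 1 (without KO replicate 1 or 4 or WT replicate 5), ribosomal proteins 1 (KO replicate 4 or WT replicate 5) or 2 (KO replicate 1 or 5 or WT replicate 4), RNA processing 2 (KO replicate 5 or WT replicate 1 or 5) or 3 (WT replicate 4), DNA maintenance 2 (WT replicate 1) and biogenesis 1 (KO replicate 1). Mitochondrial shares at day 6 ran from 4.99% to 5.63% in KO and 3.07% to 3.27% in WT cells with a library left out. Single-gene alternatives were computed for calls of the model reported: of those for the counted members, 362 kept and 53 lost the call. Depth limits the 6 members near 0, and multi-mapping and strand settings limit the copied and overlapping members.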

Other observations

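The mitochondrial ribosomal proteins, which translate these mRNAs, were counted in the same model. Of 78 tested, 0 were higher and 4 were lower in KO than in WT cells at day 6 (median log2 difference -0.17), where 14.5% of all genes tested were called higher and 14.4% lower: Mrpl39, Mrps21, Mrpl51 and Mrpl33. At day 0, 4 of the 78 were higher in KO than in WT cells and 0 lower (median 0.43), beside 6.46% and 9.09% of all genes tested. Against day 0, 2 of the 78 rose and 17 fell at KO day 6 (median -0.40), and 13 rose and 3 fell at WT day 6 (median 0.12). Over all genes tested 20.5% rose and 23.1% fell at KO day 6, and 21.7% rose and 27.8% fell at WT day 6, so the share that fell at KO day 6 is near the background. The difference between these changes passed the test for 1 of the 78, Mrpl33 (log2 estimate -1.60 ± 0.30, edgeR adjusted p = 0.0328).

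RNAs that lack a poly(A) tail, or stay in the nucleus, were listed as a view of library preparation. Of 9 tested, 0 were higher and 1 was lower in KO than in WT cells at day 6, the histone gene Hist1h2bc (61.1 CPM in KO and 119 CPM in WT cells, edgeR adjusted p = 0.00526), a share near the 14.4% of all genes tested called lower. The nuclear RNA Malat1 averaged 788 CPM in KO and 407 CPM in WT cells at day 6 (adjusted p = 0.303). The median log2 difference of the 9 was -0.65 at day 6, with 3 above 0. At day 0 it was 0.74, with 2 called higher and 0 lower, beside 6.46% and 9.09% of all genes tested. The change from day 0 to day 6 differed between the lines for 2 of the 9, both downward (median -1.02), beside 4.04% of all genes tested. The part of these RNAs in the mitochondrial values was not tested.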
